A study of Mus musculus with 4 samples.

Results

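The genes described here are 9 genes of the hedgehog pathway in mouse D3 embryonic stem cells: the ligand genes Shh and Ihh, the receptor genes Ptch1 and Smo, the ligand-binding inhibitor Hhip, the cytoplasmic inhibitor Sufu and the transcription factor genes Gli1, Gli2 and Gli3. Every probe other than a control whose RefSeq accession maps to one of these genes was taken, which gave 13 of the 41174 probes on the array, and 9 of its 32970 genes or unnamed transcripts. Of these 13 probes, 10 were well above background on both arrays of at least 1 RNA group, and 7 of the 9 genes could be tested.

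The study compared cells treated with siRNA against Pnpla6, which encodes the phospholipase called neuropathy target esterase, with control cells on 4 arrays read in 2 colours. The groups were silenced cells at 96 h, control cells at 96 h, silenced cells at 24 h and control cells at 24 h, with 2 replicates each. All of them were D3 cells grown as embryoid bodies in the absence of LIF, which holds mouse embryonic stem cells undifferentiated. Even the control cells were thus in conditions that favour differentiation. The labels say neither what the control cells received nor whether replicates were separate cultures, so the p-values measure a spread that may be technical.

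Hedgehog ligands bind Ptch1, which otherwise holds the membrane protein Smo inactive. Active Smo acts in the primary cilium to free the Gli proteins from Sufu: Gli2 is the main activator, Gli3 is mostly cut into a repressor when no ligand is present, and Gli1, Ptch1 and Hhip are transcribed in answer to the signal in many tissues. In the mouse embryo the pathway patterns the neural tube and limb, and Ihh from the visceral endoderm acts on neighbouring cells.

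Each array held 43379 spots other than controls, and 62.5% to 68.7% of them per channel were well above background. Pnpla6 was at 54.9% of the control level in silenced cells at 24 h (log2 ratio -0.87, limma adjusted p = 2.6e-11) and at 100.6% at 96 h (log2 ratio 0.01, limma adjusted p = 0.960). In a fit with no term for the dye the 24 h ratio of Pnpla6 was the same but did not pass (limma adjusted p = 0.99995). All 10 embryonic stem cell markers were well above background in all 8 channels. The number of arrays limits the precision, and in bulk RNA fewer cells of a type and less RNA per cell cannot be told apart.

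The first comparison asked how silencing altered the pathway by 96 h. Gli3 was lower in silenced cells, at 64.5% of control, and Gli2 was 1.30-fold, Gli1 1.16-fold and Ptch1 1.14-fold higher. Smo, Sufu and Hhip did not pass the test, and the probes of both ligand genes stayed at background. In limma 4 of the 7 tested genes passed at a Benjamini-Hochberg adjusted p under 0.05, 3 of them higher and 1 lower. Over all 21754 genes tested 13.4% passed, 6.61% higher and 6.8% lower.

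**Figure D1:**
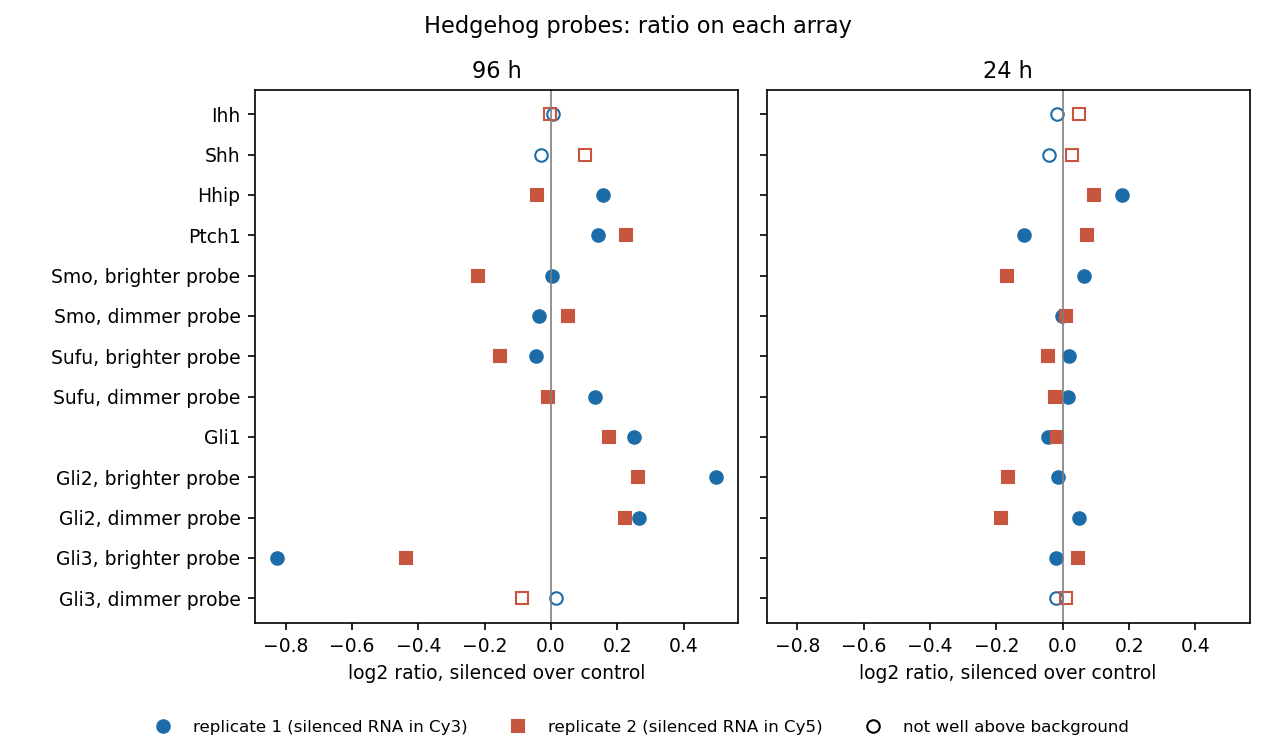
Log2 ratio of silenced over control cells (x axis) for each of the 13 hedgehog probes (rows) on the 2 arrays of 96 h (left) and of 24 h (right). Circles are replicate 1 and squares replicate 2, and open symbols are probes not well above background in any channel. At 96 h the brighter Gli3 probe lies at -0.83 and -0.44 and the brighter Gli2 probe at 0.50 and 0.26.

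The ligand genes gave no measurable signal. The Shh probe is printed at 10 places on each array and was well above background in 0 of 80 spot readings, 40 in each colour. Ihh, also printed 10 times, was well above background in 0 of 80 readings. Neither ligand therefore has a ratio to report, and these probes give only an upper bound on the signal: the raw signals of Ihh were 28.6 and 68.6 in silenced cells at 96 h, over local backgrounds of 21.5 and 59.8, against 74.5 and 27.2 in control cells at 96 h, over 64.4 and 19.2.

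Gli3 encodes the factor that acts mainly as the repressor of the pathway. Its brighter probe, which was the one tested, had normalised log2 intensities of 7.88 and 8.18 in silenced cells at 96 h, against 8.70 and 8.62 in control cells at 96 h. Both silenced channels lay below both control channels. Separation of this kind, in either direction, was also seen for effects that did not pass, Sufu at 96 h and Gli1 and Hhip at 24 h. Its share over all genes was not counted. The brighter Gli3 probe was at 8.54 and 8.68 in silenced cells at 24 h, against 8.56 and 8.63 in control cells at 24 h. The log2 ratio at 96 h was -0.63 (SE 0.07, n = 2 arrays; limma adjusted p = 4.2e-09), made up of -0.83 in replicate 1 and -0.44 in replicate 2. At 24 h it was 0.01 (SE 0.07, 95% interval -0.12 to 0.14, limma adjusted p = 0.996). The second Gli3 probe was well above background in 0 of its 80 readings, so the fall rests on 1 probe with 1 spot per array.

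Gli2 encodes the main activator. Its brighter probe had log2 intensities of 8.97 and 8.96 in silenced cells at 96 h, against 8.48 and 8.70 in control cells at 96 h. At 24 h it had 8.73 and 8.81 in silenced cells, against 8.74 and 8.97 in control cells. The groups were apart at 96 h, as were those of some effects that did not pass, and overlapped at 24 h. The log2 ratio at 96 h was 0.38 (SE 0.06, n = 2 arrays, limma adjusted p = 3.1e-05), made up of 0.50 in replicate 1 and 0.26 in replicate 2, and at 24 h it was -0.09 (SE 0.06, 95% interval -0.22 to 0.04, limma adjusted p = 0.859). A second, dimmer Gli2 probe moved the same way at 96 h, with 0.26 and 0.22 on the 2 arrays and 0.24 in the fit of every probe (limma adjusted p = 0.0060).

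Gli1 encodes an activator that is itself a transcriptional target of the pathway. Its probe had log2 intensities of 7.19 and 7.12 in silenced cells at 96 h, against 6.94 and 6.95 in control cells at 96 h. In the 24 h cells it had 7.29 and 7.28 after silencing, against 7.34 and 7.30 in control cells. Control cells at 96 h were thus the lowest of the 4 groups, and silenced cells at 96 h lay between them and the 24 h cells. The log2 ratio at 96 h was 0.21 (SE 0.06, n = 2 arrays, limma adjusted p = 0.017), and at 24 h it was -0.03 (SE 0.06, limma adjusted p = 0.985). The Gli1 probe is printed 10 times, and at 96 h all 10 spots had a positive log2 ratio on both arrays, with means of 0.25 ± 0.07 and 0.18 ± 0.07 (SD over 10 spots each). These spots read the same hybridised RNA, so they show the precision of a reading and not the spread between cultures.

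Ptch1, the ligand receptor, is likewise a common target. Its log2 intensities were 7.83 and 7.90 in silenced cells at 96 h, against 7.68 and 7.67 in control cells at 96 h. At 24 h they were 7.54 and 7.69 in silenced cells, against 7.66 and 7.61 in control cells. Both silenced channels lay above both control channels at 96 h, a separation also seen for some effects that did not pass, and the groups overlapped at 24 h. The log2 ratio at 96 h was 0.18 (SE 0.06, n = 2 arrays, limma adjusted p = 0.045), just inside the threshold, and at 24 h it was -0.02 (SE 0.06, limma adjusted p = 0.994). Of its 10 spots all were positive on both arrays of 96 h (0.14 ± 0.05 and 0.23 ± 0.10, SD over 10 spots). On the 24 h arrays 0 of 10 spots were positive on replicate 1 and 9 of 10 on replicate 2, a difference between arrays of the size of the 96 h effect.

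**Figure D2:**
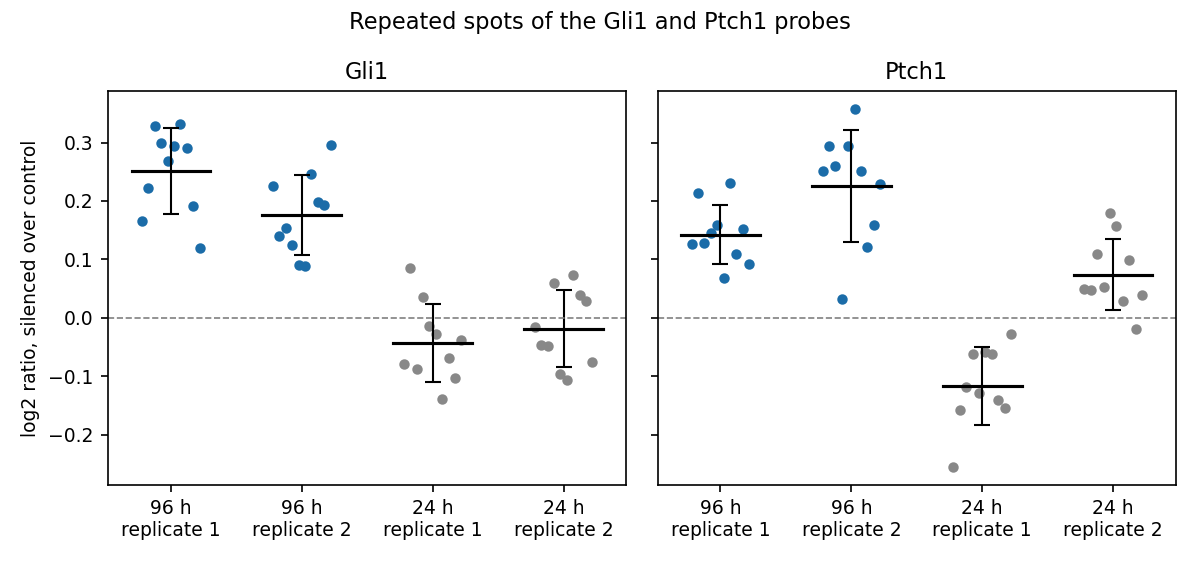
Log2 ratio of silenced over control cells (y axis) at each of the 10 spots of the Gli1 and the Ptch1 probe on the 4 arrays, 96 h in blue and 24 h in grey, with the mean and SD over spots. All 10 spots lie above 0 on both 96 h arrays for both genes, while the 24 h means of Ptch1 lie at -0.12 and 0.07.

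Smo, Sufu and Hhip did not pass at 96 h. Smo, the signal transducer of the membrane, had log2 intensities of 12.16 and 12.005 in silenced cells at 96 h, against 12.15 and 12.23 in control cells at 96 h, which overlapped (log2 ratio -0.11, 95% interval -0.24 to 0.02, limma adjusted p = 0.288). Sufu, which holds Gli proteins in the cytoplasm, had 6.56 and 6.47 in silenced cells, against 6.60 and 6.62 in control cells (log2 ratio -0.10, 95% interval -0.23 to 0.03, limma adjusted p = 0.343), and its second probe gave 0.06. These intervals leave room for falls of the size of the Ptch1 rise, and their upper ends lie at 0.02 and 0.03.

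Hhip, a membrane protein that binds and retains ligand, was well above background in both channels of silenced cells at 96 h but in neither channel of control cells at 96 h. Its log2 intensities were 6.17 and 6.09 in silenced cells at 96 h, against 6.02 and 6.13 in control cells at 96 h. The groups overlapped, and the bound on its level in control cells made it at least 1.04-fold higher in silenced cells (limma adjusted p = 0.635). The authors' own ratios, taken after their background subtraction, were 1.24 and 1.22 on the log2 scale for the same 2 arrays (limma adjusted p = 0.170). With the control channels at background these ratios give no exact fold, and neither treatment passed. At 24 h Hhip gave 0.14 (limma adjusted p = 0.607).

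A fit with no replicate block, that is with no dye term, left each 96 h ratio as it was and ended all 4 calls, with limma adjusted p-values of 0.081 for Gli3, 0.193 for Gli2, 0.385 for Gli1 and 0.573 for Ptch1. With the authors' ratios, whose direction was the same for all 4 genes, none passed either, and on the first slide alone, without 96 h replicate 2, Gli3 gave -0.83 and Gli2 0.50 with limma adjusted p-values of 0.063 and 0.364. With an offset of 16, or with median centring, Gli3 and Gli2 passed in limma and Gli1 and Ptch1 did not.

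**Figure D3:**
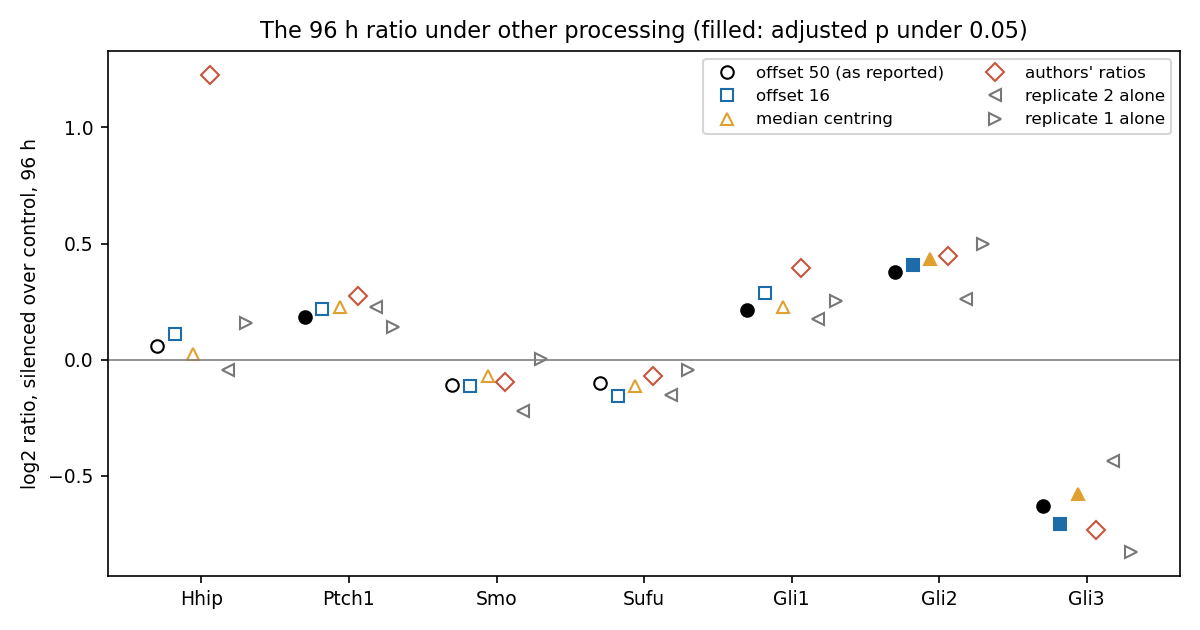
Log2 ratio of silenced over control cells at 96 h (y axis) for the 7 tested hedgehog genes as reported and under 5 other ways of processing; filled symbols have a limma adjusted p under 0.05. Gli3 lies below 0 and Gli2, Gli1 and Ptch1 above 0 under all 6, and Hhip spreads from -0.04 to 1.23.

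The upstream windows of Gli2, Gli3 and Ptch1, 3 of the 4 genes called at 96 h, are shown because they hold the regions in which a Gli binding site would be looked for first. They are the 250 bases before the annotated start in RefSeq (GRCm38.p6), on the gene's own strand, and 7 of the 9 genes had an entry (not Gli1 and Shh). The Gli consensus GACCACCCA was searched on both strands over 300 bases, the 250 before and 50 after the start. It was in none of the 7 windows, and 0.253% of all 32851 promoters hold it. The shorter core CCACCC, part of that consensus, was searched after the first result was seen. It is in 31.5% of all promoters over the 300 bases and in 28.1% over the 250 bases before the start. In capitals below is each match of this core, written GGGTGG where it lies on the opposite strand.
Gli2 (chr1:119053620-119053869, minus strand): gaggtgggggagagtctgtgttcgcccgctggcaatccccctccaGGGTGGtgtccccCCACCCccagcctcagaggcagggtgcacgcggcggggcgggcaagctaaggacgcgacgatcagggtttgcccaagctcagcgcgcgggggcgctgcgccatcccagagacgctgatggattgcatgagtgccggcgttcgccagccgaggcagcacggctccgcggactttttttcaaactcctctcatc
Gli3 (chr13:15463473-15463722, plus strand): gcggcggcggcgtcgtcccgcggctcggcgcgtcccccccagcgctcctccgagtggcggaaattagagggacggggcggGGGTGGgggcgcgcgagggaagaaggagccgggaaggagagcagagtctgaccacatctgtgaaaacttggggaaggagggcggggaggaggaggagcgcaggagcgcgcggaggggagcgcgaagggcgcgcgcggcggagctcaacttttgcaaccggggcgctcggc
Ptch1 (chr13:63565736-63565985, minus strand): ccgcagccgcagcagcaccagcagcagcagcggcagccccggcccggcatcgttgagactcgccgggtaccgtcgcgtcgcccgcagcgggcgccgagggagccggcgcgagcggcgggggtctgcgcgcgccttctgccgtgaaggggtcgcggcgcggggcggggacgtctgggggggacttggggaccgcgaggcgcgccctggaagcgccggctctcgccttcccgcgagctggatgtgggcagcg
The Gli2 window, of the gene that was higher, held 2 matches, 205 and 192 bases before the start, and the Gli3 window, of the gene that was lower, held 1, at 170 bases. The Ptch1 window held none, nor did that of Sufu, while Smo and Hhip held 1 each and Ihh 2. A match of letters is a description of the sequence and not a binding site.

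At 24 h, when Pnpla6 itself was low, 0 of the 7 hedgehog genes passed in limma, and 1 had an unadjusted p under 0.05, Hhip. Over all genes 0.372% passed. The test of the difference between the effects at the 2 times passed for Gli3 (-0.64, SE 0.09, limma adjusted p = 6.4e-06) and Gli2 (0.47, SE 0.09, limma adjusted p = 0.00043), 2 of 7 genes where 6.92% of all genes passed, 2.83% upwards and 4.1% downwards. For the second Gli2 probe the difference was 0.31 (limma adjusted p = 0.024 in the fit of every probe). Gli1 gave 0.24 (SE 0.09, limma adjusted p = 0.096) and Ptch1 0.21 (SE 0.09, limma adjusted p = 0.185), so their effects at 96 h were not shown to differ from those at 24 h. Neither call held without the replicate block or with the authors' ratios (0 of 7), where 1297 and 2937 genes had an unadjusted p under 0.05, nor with any 1 array left out. The Gli2 call was also lost at an offset of 16 (0.51, limma adjusted p = 0.069).

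The single channels then allowed cells of a kind to be compared between times. In silenced cells Smo was 1.63-fold higher at 96 h than at 24 h, while Hhip was at 64.2%, Gli3 at 66.9% and Sufu at 81.5% of the 24 h level. In control cells Smo was 1.70-fold higher, and Gli1 was at 77.2% of the 24 h level. Hhip was measured there at 67.8% of the 24 h level, with its 96 h channels at background. In silenced cells 4 of the 7 genes passed in limma, 1 higher and 3 lower, where 37.2% of all genes did (19.6% higher, 17.6% lower). In control cells 3 of 7 passed, 1 higher and 2 lower, where 36.2% of all genes did (19.4% higher, 16.8% lower). Among so few genes these shares were not far from that of all genes.

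**Figure D4:**
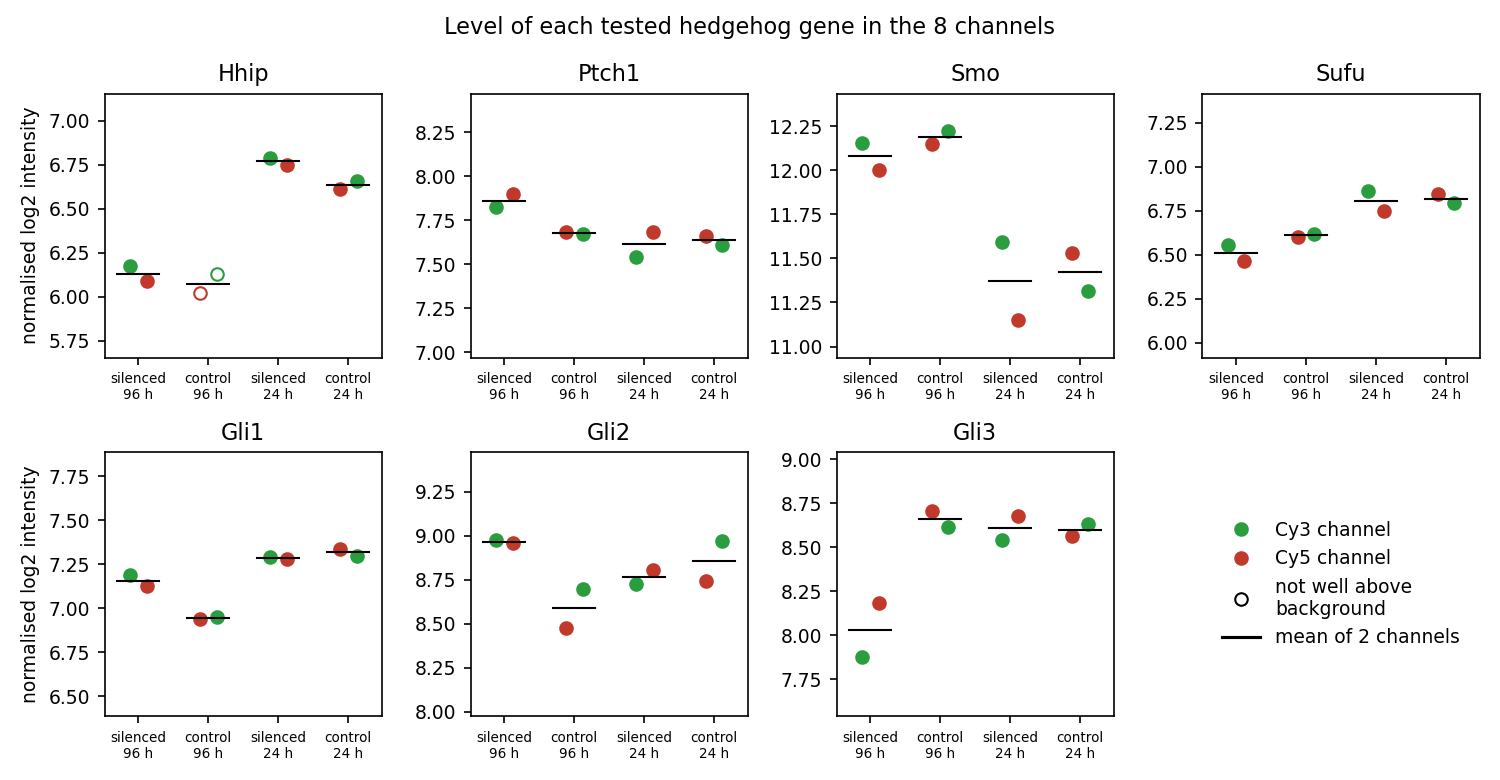
Normalised log2 intensity (y axis, 1.5 log2 units in each panel) of the tested probe of each of the 7 genes in silenced and control cells at 96 h and at 24 h. Points are single channels, green for Cy3 and red for Cy5, open where the probe was not well above background, and lines are means of 2 channels. Gli3 is low in silenced cells at 96 h alone, and Smo is high in both groups at 96 h.

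Smo had log2 intensities of 12.16 and 12.005 in silenced cells at 96 h, against 11.60 and 11.15 in silenced cells at 24 h (difference 0.71, SE 0.12, limma adjusted p = 0.0033). In control cells it had 12.15 and 12.23 at 96 h, against 11.53 and 11.32 at 24 h (difference 0.76, SE 0.12, limma adjusted p = 0.0024). The 96 h channels lay above the 24 h channels in both kinds of cell. The times were also apart in comparisons that did not pass. There the 96 h channels were lower for Sufu and Gli2 in control cells and for Gli1 in silenced cells. They were higher for Gli2 in silenced cells and for Ptch1 in both kinds of cell. The share of all genes with such a separation was not counted. A second, much dimmer Smo probe gave -0.13 in silenced cells and -0.13 in control cells, so the 2 probes of Smo disagree and the rise belongs to the bright probe.

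Hhip had 6.17 and 6.09 in silenced cells at 96 h, against 6.79 and 6.75 in silenced cells at 24 h (difference -0.64, SE 0.10, limma adjusted p = 0.0017). In control cells it had 6.02 and 6.13 at 96 h, not well above background, against 6.61 and 6.66 at 24 h. The measured level was 1.48-fold lower at 96 h (difference -0.56, SE 0.10, limma adjusted p = 0.0032). Both 96 h channels lay below both 24 h channels in each kind of cell, a separation also seen in comparisons that did not pass. With the scanner's processed signals these differences were -2.20 in silenced cells and -3.06 in control cells, the second against a level at background, so the size of the fall followed the treatment of background while its direction and call did not change.

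The Gli genes differed in their course. In silenced cells Gli3 passed (-0.58, SE 0.16, limma adjusted p = 0.024), while Gli1 gave -0.13 (limma adjusted p = 0.324) and Gli2 0.20 (limma adjusted p = 0.172). In control cells Gli1 passed (-0.37, SE 0.09, limma adjusted p = 0.017), while Gli2 gave -0.27 (limma adjusted p = 0.077) and Gli3 0.06 (limma adjusted p = 0.793). The difference between these 2 courses is the same quantity as the difference between the silencing effects, which passed for Gli3 and Gli2 and not for Gli1. Ptch1 gave 0.25 in silenced cells (limma adjusted p = 0.079) and 0.04 in control cells (limma adjusted p = 0.774). Sufu gave -0.29 in silenced cells (limma adjusted p = 0.035) and -0.21 in control cells (limma adjusted p = 0.109). These values were not shown to differ (-0.09, limma adjusted p = 0.672). The second Sufu probe did not pass in the fit of every probe, with -0.15 in silenced cells (limma adjusted p = 0.246) and -0.22 in control cells (limma adjusted p = 0.110).

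Without normalization between arrays the calls of Gli3 in silenced cells (-0.44, limma adjusted p = 0.075), Sufu in silenced cells (-0.18, limma adjusted p = 0.204) and Gli1 in control cells (-0.22, limma adjusted p = 0.135) were lost. Ptch1 (0.41, limma adjusted p = 0.016) and Gli2 (0.33, limma adjusted p = 0.038) passed in silenced cells under that setting, so that 3 hedgehog genes were higher and 1 lower there, against 1 higher and 3 lower as reported. The balance of directions in silenced cells therefore depended on this choice, while Smo and Hhip passed the same way under both. Without 24 h replicate 2, 6 of the 7 genes passed in silenced cells, with Ptch1 (0.30, limma adjusted p = 0.010) and Gli2 (0.30, limma adjusted p = 0.014) added to the 4. Within the first slide, which held both 24 h arrays and 96 h replicate 1, Smo and Hhip passed in both kinds of cell as did Gli1 in control cells (-0.39, limma adjusted p = 0.0085), and Gli3 and Sufu in silenced cells. Gli2 in control cells (-0.34, limma adjusted p = 0.025) and Ptch1 in silenced cells (0.26, limma adjusted p = 0.047) passed there as well.

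Other genes of the pathway were counted in 5 lists, to be read against the 6.61% of all genes that were higher and the 6.8% that were lower at 96 h. Of genes for ligand production and release, 2 of 6 tested rose at 96 h in silenced cells and 0 fell, with a median log2 ratio of 0.08 against 0.00 over all genes. Disp1, a membrane protein that releases the lipid-modified ligand, rose by 0.43 (0.47 and 0.40 on the 2 arrays, limma adjusted p = 4.4e-06), but its other probe gave 0.07. Scube1, a secreted relative of a protein that aids this release, rose by 0.21 (other probe 0.09). Of the coreceptors and ligand-binding proteins, 0 of 6 counted rose and 3 fell, with a median of -0.18. The glypicans Gpc4 and Gpc3, proteoglycans of the cell surface, fell by 0.33 and 0.22, and Lrp2, a large endocytic receptor, fell by 0.25, with 3 other probes between -0.43 and -0.09. The fall of Gpc3 came from 1 array, with -0.44 on replicate 1 and -0.01 on replicate 2, and that of Gpc4 mostly from the same array, with -0.56 on replicate 1 and -0.10 on replicate 2.

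Of 17 genes of the cilium and of signal transduction 3 rose and 0 fell, with a median of 0.01, and of 19 genes for kinases and degradation of Gli proteins 1 rose and 1 fell, with a median of 0.03. Neither share was far from the 13.4% of all genes that passed. Evc2 and Evc, partners in a complex that relays the signal from Smo, rose by 0.26 and 0.25, and the second Evc probe gave 0.13. The arrays differed in size, with 0.09 on replicate 1 and 0.43 on replicate 2 for Evc2, and 0.14 on replicate 1 and 0.37 on replicate 2 for Evc. Ift172, a part of the transport machinery of the cilium, rose by 0.19 (0.34 on replicate 1 and 0.04 on replicate 2), while its 2 other probes gave 0.05 and 0.06. Spop, the adaptor of a ubiquitin ligase that targets Gli2 and Gli3, fell by 0.42 (-0.35 and -0.49 on the 2 arrays, limma adjusted p = 5.6e-06), and the casein kinase gene Csnk1e rose by 0.28 (other probe 0.10).

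Genes known as hedgehog targets in other tissues moved both ways. Of 19 tested, 5 rose and 2 fell at 96 h, where 13.4% of all genes passed, with a median of 0.04. The rises were led by Sfrp1, a secreted Wnt antagonist, at 0.82 (0.77 and 0.86 on the 2 arrays, other probe 0.40) and Spp1, which encodes osteopontin, at 0.62. The falls were Bcl2, an inhibitor of apoptosis, at -0.61 (other probe -0.63), and the cell cycle kinase gene Cdk6 at -0.39 (other probe -0.10). The remaining rises, Tbx3 (0.36), Prdm1 (0.30) and Mycn (0.27), are named after their values were seen, and Mycn was positive on 1 array only (-0.06 and 0.59). Without the replicate block, Sfrp1, Spp1 and Bcl2 passed (limma adjusted p-values of 0.014, 0.035 and 0.037), and no other gene of the 5 lists did.

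**Figure D5:**
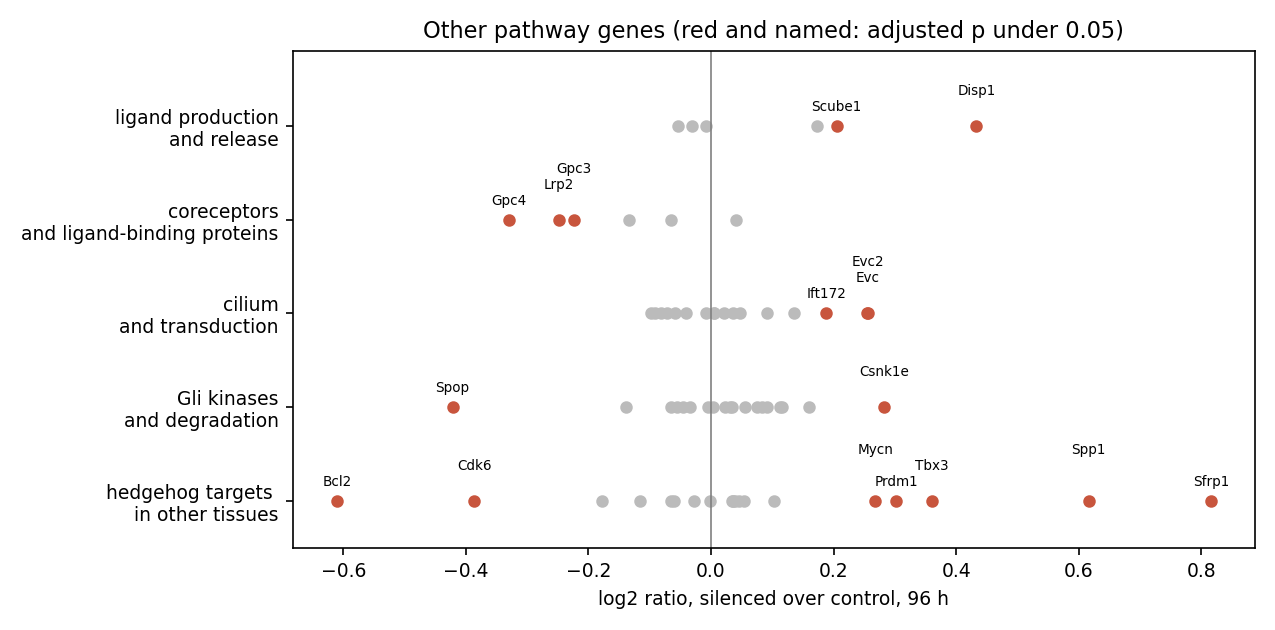
Log2 ratio of silenced over control cells at 96 h (x axis) for each tested gene of the 5 lists of other pathway genes (rows). Red points have a limma adjusted p under 0.05 and are named: 5 genes rose and 2 fell among the targets, and 3 fell among the coreceptors.

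At 24 h no gene of the 5 lists passed in limma (0 of 67 counted, 5 of them at an unadjusted p under 0.05), and the smallest p in each list belonged to Disp1 (-0.10), Lrp2 (0.09), Ift80 (-0.11), Cul1 (-0.16) and Prdm1 (0.17). Between the times 25 of the 67 genes passed in silenced cells, where 37.2% of all genes did. In control cells 27 of the 67 passed, where 36.2% of all genes did. These shares were not far from those of all genes, and the genes named next are examples. At 96 h against 24 h the endocytic receptor gene Lrp2 rose by 1.27 in silenced cells and by 1.61 in control cells, with its 3 other probes between 0.21 and 1.00 in silenced cells and between 0.42 and 1.51 in control cells. The glypican gene Gpc3 rose by 1.25 in silenced cells and by 1.52 in control cells. Sfrp1 gave -0.68 in silenced cells and -1.40 in control cells (other probe -0.45 in silenced cells and -0.72 in control cells). Bmp4, a secreted growth factor, gave -1.50 in silenced cells and -1.65 in control cells, and Fst, an inhibitor of activin, -1.74 in silenced cells and -1.47 in control cells. All of these passed in limma. Arrb1, a regulator of Smo trafficking, rose by 1.35 in silenced cells and by 1.51 in control cells, but its other probe gave 0.17 in silenced cells and 0.25 in control cells.

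Markers of some cell types passed in limma at 96 h and those of others did not, and their part in the hedgehog values was not tested. The counts stand against the 13.4% of all genes that passed at 96 h. Of 6 fibroblast markers tested, 4 fell and 1 rose, and the summed intensity of all 10 was 2886 to 2928 in silenced cells and 3105 to 3384 in control cells; Lum, Col3a1, Postn and Mgp were at background in all 8 channels. Of 11 neural progenitor markers 2 fell, and the summed intensity of all 12 was 2985 to 3034 in silenced cells and 3351 to 3583 in control cells, with Neurog2 at background. Of 11 visceral endoderm markers 3 rose, while Ttr, Apoa1 and Apoa4 were at background. The summed intensities over all 15 were 9333 to 9426 in silenced cells and 8813 to 9225 in control cells. Most of that sum is Rhox5, at a mean log2 intensity of 12.89 in silenced and 12.87 in control cells, so it says little of the other markers. Of 10 embryonic stem cell markers 6 rose and 1 fell, with summed intensities of 286468 to 419460 in silenced cells and 235069 to 408777 in control cells. Most of that sum is Dppa5a, at 17.84 in silenced and 17.63 in control cells. The marker that fell was Pou5f1, at 12.98 in silenced and 14.03 in control cells. In limma 0 of the 7 mesoderm and 0 of the 4 osteochondral markers tested passed, with 3 and 2 at an unadjusted p under 0.05. The mesoderm sums were 946 to 993 in silenced cells and 954 to 981 in control cells, with Mixl1 and Foxf1 at background, and the osteochondral sums were 673 to 736 in silenced cells and 694 to 708 in control cells, with Pthlh at background.

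The genes whose level followed each hedgehog gene most closely were found by the Pearson correlation of log2 intensity over the 8 channels, after the dye term was taken out, among 12972 genes with a plain symbol. The 8 channels share 4 arrays, and with so few points high values arise easily, so this is a description only. Nearest to Gli3 were Sulf1 (0.982), Zkscan8 (0.977) and Rps6ka6 (0.969), and nearest to Gli2 were Npas2 (0.954), Cib1 (0.927) and Tex12 (0.925). Nearest to Gli1 were Klk1b3 (0.993), Sh3tc1 (0.989) and Lasp1 (0.987), and nearest to Ptch1 were Higd1a (0.985), Impa2 (0.984) and Ptgds (0.982). Smo was followed by Cpped1 (0.999), Spint1 (0.997) and Ndufaf3 (0.997), and Sufu by Npff (0.998), Mrps18c (0.997) and Tceal8 (0.996).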

How the data were processed

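RNA of silenced and control cells was hybridised to 4 arrays, 2 per time, with control RNA in Cy5 on replicate 1 and silenced RNA in Cy5 on replicate 2; the labelling started from 200 ng of RNA, per the labels. The authors extracted the arrays with Agilent Feature Extraction (10.7 per the submitters' processing notes, 10.7.1.1 per the file headers), and those notes also name limma. The deposited scanner files hold spot and background intensity in arbitrary units, and the deposited log10 ratios, of silenced over control cells in the authors' series table, equal those of the scanner files within 4.97e-06. A deposited p-value per spot covers 1 array and was not used.

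Median spot signals were corrected with limma 3.58.1 (R 4.3.3, statmod 1.5.0) by normexp with an offset of 50, which by its construction shrinks the ratios of dim probes, and normalized by loess within arrays with control spots at weight 0. Mean signals, named in the plan, are not in the files used. Of 41174 probes 28082 passed the background filter, and the brightest probe of each of 21754 genes was tested. Silencing effects came from log2 ratios on all 4 arrays with a mean per time and a dye term, which leaves 1 residual degree of freedom and leans on 33.2 prior ones. Dye and replicate number coincide; the arrays of the same number had correlations of 0.359 and 0.389 over all genes, the 2 arrays of 24 h -0.434 and those of 96 h 0.151. Times were compared in single channels with lmscFit after Aquantile, with a dye term and the estimated intraspot correlation (0.896). Tests were two-sided, with Benjamini-Hochberg adjustment over all genes.

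The fits were run on data simulated with the fitted spread and independent noise on each array. Such data follow the model, so they cannot show how the correlations between the real arrays affect the calls. The 9 genes and all lists were chosen with earlier results of these data known. All probes of the 9 genes are given. Of each other list, up to 4 genes per silencing comparison past the threshold are named, smallest p first, or the 1 with the smallest p. For the comparisons between times only some of the genes picked by this rule are named. 1 gene of the coreceptor list is not reported here and is left out of the counts. Alternatives were no dye term, an offset of 16, median centring, the authors' ratios or processed signals, no filter, every probe, no normalization between arrays, the slide as a block and each array left out. Promoters came from RefSeq (GRCm38.p6).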

Additional observations from a re-analysis of the deposited data

Results flagged for a closer look

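Silencing effects that differed between the times in limma's test of the difference (96 h minus 24 h) were found for Gli3 (-0.64, from -0.63 at 96 h and 0.01 at 24 h) and Gli2 (0.47, from 0.38 and -0.09). Among the other pathway genes the effect was more positive at 96 h for Sfrp1 (0.72), Disp1 (0.54), Spp1 (0.47), Csnk1e (0.36), Tbx3 (0.36) and Evc2 (0.28). It was more negative for Bcl2 (-0.57), Spop (-0.57), Cdk6 (-0.35), Lrp2 (-0.34) and Gpc4 (-0.33). The limma adjusted p-values ran from 4.3e-07 for Sfrp1 to 0.045 for Evc2. The labels give no separate cultures, and the causes of these differences were not tested.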

How the results depend on the processing

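At 96 h the reported counts were 2918 genes and 4 hedgehog genes. They were 106 (15 higher, 91 lower) and 0 without the replicate block, 1017 and 2 with an offset of 16, 1798 and 2 with median centring, and 0 and 0 with the authors' ratios in limma (3846 genes at an unadjusted p under 0.05). They were 36 and 0 with the slide as a block, and 29 to 114 and 0 with 1 array left out. Of the 1798 genes 1126 were higher and 672 lower, against 1438 and 1480 as reported. Without the filter Ptch1 had a limma adjusted p of 0.059. At 24 h the 81 genes became 0 in limma without the replicate block (216 at an unadjusted p under 0.05), at an offset of 16 (1615), on the authors' ratios (1571), with the slide as a block (193) and with any 1 array left out (193 to 296), and 42 with median centring. For the difference between times, 1506 genes and 2 hedgehog genes became 0 and 0 without the replicate block, with the authors' ratios, with the slide as a block and with 1 array left out, 271 and 1 with an offset of 16, and 737 and 2 with median centring. The cause was not tested, but fits with an array left out or a slide block hold 1 array of a time and no dye term. Mycn, called at 96 h with 0.27, gave -0.058 without 96 h replicate 2 and with the slide as a block, and 0.59 without 96 h replicate 1; no other called value of a named gene changed sign. Between times the counts of all genes moved by less than 1.5 times, but the lower calls became 5628 and 5631 in control cells and 5884 and 5704 in silenced cells without 24 h replicate 1 and 2 in turn, against 3656 and 3834 as reported. The hedgehog calls became 6 in silenced cells without 24 h replicate 2, against 4, and 2 in control cells without normalization between arrays, against 3. That setting called 4906 genes higher and 2885 lower in silenced cells, against 4264 and 3834 as reported, and 4859 and 2768 in control cells, against 4222 and 3656. With 3 arrays the single-channel fits used the intraspot correlation of all 4. Signal over background limits Hhip, Shh, Ihh and the second Gli3 probe.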

Other observations

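The authors' own log ratios are set to exactly 0 for many spots of the probes at background. This held for 37 of the 40 Shh spot ratios and for 18 of 40 of the second Gli3 probe, but for only 2 of 40 of Ihh, whose mean ratio at 96 h in the authors' table was 0.14 on replicate 1 and 0.34 on replicate 2 on the log2 scale. None of these 3 probes was well above background in any channel.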
